A study of Mus musculus with 6 samples.

Results

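The targets of the transcription factor ATF4 and the aminoacyl-tRNA synthetases were examined in blood stem cells of Cdk19 knockout mice. The set holds 34 genes in 4 roles: regulators and stress effectors, amino acid synthesis, amino acid transport and tRNA charging. Members were taken by exact gene symbol in the platform annotation, with the brightest transcript cluster by mean over the arrays where a gene had more than 1. A transcript cluster is the group of probes that the array assigns to 1 gene or transcript. Of the 34 genes, 32 had a cluster carrying their symbol alone, out of 30145 genes so named on the array. No such cluster was found for Pycr1. The cluster of Aars was shared with another gene, so neither was analysed here. The cluster of Trib3 fell below the limit on dim clusters, which left 31 tested members.

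Expression was measured on 3 arrays of CDK19-/- mice and 3 arrays of wild-type mice, all aged 6 to 8 weeks. Both groups were sorted hematopoietic stem cells (HSCs), obtained by flow cytometry from leg and hip bone marrow after lineage-positive cells were depleted. The labels name no further allele, agent or treatment, and give neither the deleted part of the gene, the markers of the sort nor the number of animals behind each array. The replicates are called biological, so the p-values measure the spread between these samples.

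ATF4 is the effector of the integrated stress response. Kinases that sense amino acid shortage, misfolded protein, viral RNA or heme deficiency phosphorylate the translation factor eIF2, which lowers general protein synthesis while translation of the Atf4 mRNA goes up. ATF4 then acts, often as a dimer with C/EBP proteins, on genes that make amino acids, import them and load them onto tRNA. HSCs are known for a low rate of protein synthesis and for a sensitivity of their survival to this pathway.

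In the knockout HSCs 9 of the 31 tested members rose and 0 fell, while 22 did not pass the test (limma, Benjamini-Hochberg adjusted p under 0.05). At an unadjusted p under 0.05, 14 were higher and 1 was lower, against 9.32% higher and 12.3% lower over all tested clusters. Over the whole array 2.96% of tested clusters were called higher and 4.84% lower. Among clusters of protein-coding genes with a mean level of at least 8, which 23 of the 31 members reached, 9.36% were called higher and 9.13% lower, and 19.8% were higher and 21.0% lower at an unadjusted p under 0.05. The members that rose were Vldlr, Slc7a5, Slc7a1, Slc3a2, Asns, Eprs, Ddit3, Mthfd2 and Gars, by 1.25-fold to 1.65-fold. The mRNA of Atf4 itself was not among them. In sorted bulk samples fewer cells of a type and less RNA per cell cannot be told apart. The members and the lists used here were chosen with results of these arrays already known, so these counts describe the set and are not independent evidence of its direction.

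The median log2 change over the tested members was 0.15, and 0.00 over all tested clusters. A log2 change here is the mean of the knockout arrays minus the mean of the wild-type arrays on the deposited scale, which was read as log2. Changes ran from -0.15 for Sars to 0.73 for Vldlr, with 26 above 0 and 5 below, against 50.7% above 0 for all tested clusters and 49.6% for the bright protein-coding ones. By role the median log2 change was 0.34 for transport, 0.18 for tRNA charging, 0.17 for synthesis and 0.12 for regulators and stress effectors. All 3 knockout arrays lay above all 3 wild-type arrays for 18 of the 31 members and below them for 1, Slc1a5. The same was so of 11.6% (above) and 14.9% (below) of all tested clusters, and of 24.5% and 25.5% of the bright protein-coding ones.

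**Figure D1:**
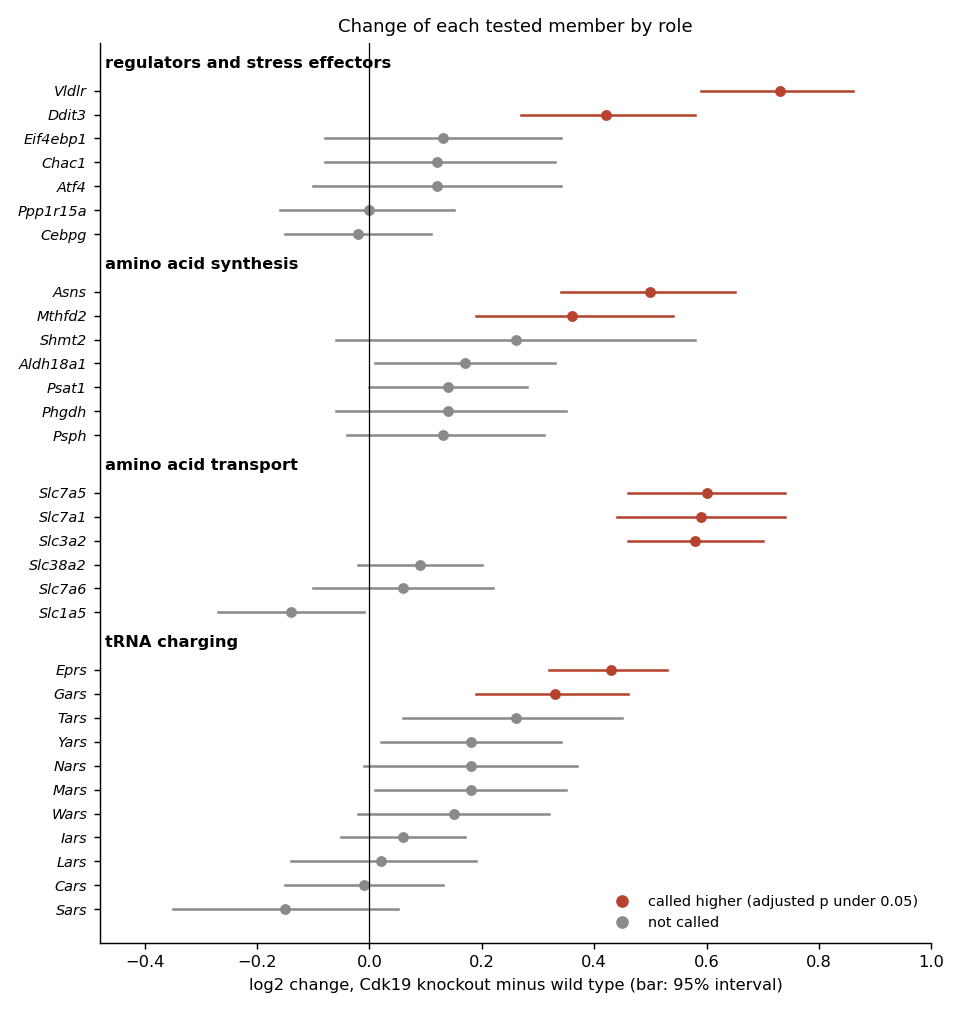
Log2 change of each of the 31 tested members (horizontal axis, knockout minus wild type), grouped by role, with bars for the 95% interval from limma. The 9 called members are in red, from Gars at 0.33 to Vldlr at 0.73, and most of the other members lie between 0 and 0.26.

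**Figure D2:**
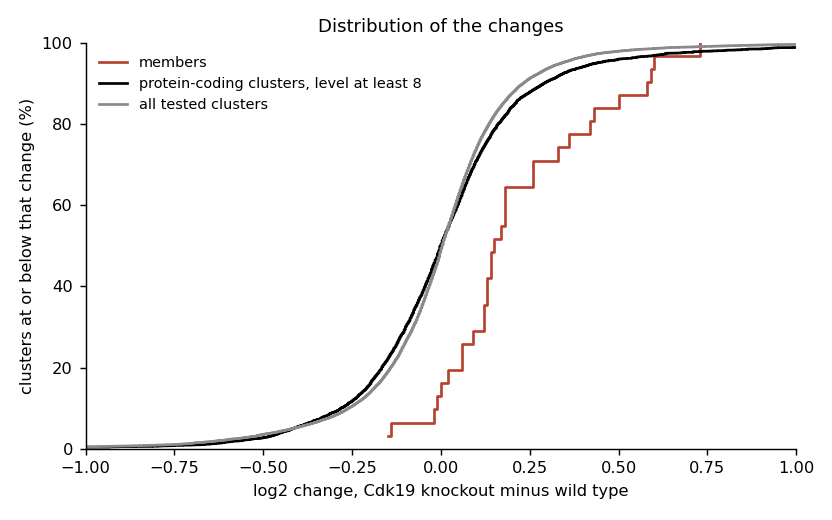
Cumulative share of clusters (vertical axis, percent) at or below a given log2 change, knockout minus wild type (horizontal axis), for the 31 tested members, for bright protein-coding clusters and for all tested clusters. The curve of the members runs to the right of both others, with a median of 0.15 against 0.00 for all tested clusters.

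The binding site through which ATF4 acts with C/EBP proteins, the C/EBP-ATF response element, was looked for as TGATGNAA on both strands in the 250 bases before each annotated start. It was present for 7 of the 27 members with a promoter in the RefSeq table (GRCm38.p6), and for 3.91% of all 27025 genes there. The set was named for ATF4 targets, so a higher share among members may come from that choice and is no evidence from these arrays. It was present for 3 of 8 members that rose, Asns, Vldlr and Gars, and for 2 of 16 that were measured and not called, Chac1 and Tars. The other matches were in Aars and Pycr1, which have no call. For Vldlr only 1 of 2 windows held the motif. That match lies inside the annotated span of the gene, so it may fall within a longer transcript of Vldlr. The stretches of the 3 risen members and of the 2 measured members with a match that did not rise are shown, since they set the sites beside the responses. They are printed 5′ to 3′ on the strand of the gene, with the match in capitals.
Asns (chr6:7693210-7693267, minus strand, first base of the match 23 bases before the start): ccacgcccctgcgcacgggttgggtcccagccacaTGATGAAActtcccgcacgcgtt
Gars (chr6:55037936-55038000, plus strand, 30 bases before the start): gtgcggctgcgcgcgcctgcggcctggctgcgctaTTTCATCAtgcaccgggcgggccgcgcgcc
Vldlr (chr19:27216809-27216838, plus strand, 200 bases before the later of its annotated starts): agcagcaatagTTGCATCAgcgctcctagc
Chac1 (chr2:119351014-119351091, plus strand, 193 bases before the start): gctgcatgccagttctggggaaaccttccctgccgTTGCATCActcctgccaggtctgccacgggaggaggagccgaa
Tars (chr15:11399659-11399708, minus strand, 15 bases before the start): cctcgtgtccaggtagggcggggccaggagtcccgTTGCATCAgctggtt
The match in Asns reads forward on the gene's strand and the other 4 read on the opposite strand. The human ASNS promoter is known for a nutrient-sensing element of the form seen in Asns here. A match is a run of letters and not a measured site, and a window without one says only that these letters are not in it.

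The regulators begin with Atf4. Its level was 9.01, 8.89 and 9.23 in knockout HSCs, against 8.94, 8.90 and 8.93 in wild-type HSCs. Knockout array 3 was the highest, knockout array 2 was below all wild-type arrays, and the groups overlapped. The log2 change of 0.12 (SE 0.09, 95% interval -0.10 to 0.34) did not pass (limma, Benjamini-Hochberg adjusted p = 0.54). ATF4 is controlled mainly through translation of its mRNA, which an expression array does not measure.

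Ddit3 encodes CHOP, a transcription factor made downstream of ATF4 under lasting stress. Its level was 11.10, 10.99 and 11.02 in knockout HSCs, against 10.61, 10.53 and 10.70 in wild-type HSCs. All knockout arrays were above all wild-type arrays, by a log2 change of 0.42 (SE 0.06), or 1.34-fold, with a limma adjusted p of 0.012. Leaving out wild-type array 1 gave a limma adjusted p of 0.0503 and leaving out wild-type array 2 gave 0.052, both past the threshold. A dimmer cluster of the same gene, at 9.41, 9.20 and 9.57 in knockout HSCs and 8.73, 8.98 and 8.92 in wild-type HSCs, had a log2 change of 0.52 (SE 0.11; limma adjusted p = 0.042).

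Vldlr, encoding the very low density lipoprotein receptor, had the largest change of the set. Its level was 8.34, 8.36 and 8.34 in knockout HSCs, against 7.58, 7.60 and 7.68 in wild-type HSCs. The knockout arrays were nearly alike and clear of the wild-type arrays. This was a log2 change of 0.73 (SE 0.06), or 1.65-fold, with a limma adjusted p of 0.0013, and 0.976% of all tested clusters had a larger one.

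The remaining regulators and effectors did not pass. Cebpg, a C/EBP partner of ATF4, was at 8.60, 8.53 and 8.57 in knockout HSCs, against 8.59, 8.59 and 8.58 in wild-type HSCs, overlapping throughout. Its log2 change was -0.02 (95% interval -0.15 to 0.11). Ppp1r15a encodes GADD34, the phosphatase subunit that reverses eIF2 phosphorylation, and its log2 change lay near 0 with a 95% interval from -0.16 to 0.15. Eif4ebp1, encoding a repressor of cap-dependent translation, had a log2 change of 0.13 (95% interval -0.08 to 0.34). Chac1, encoding an enzyme that degrades glutathione, had one of 0.12 (95% interval -0.08 to 0.33) at a low level of 4.33 in knockout and 4.20 in wild type. Trib3, a pseudokinase gene that restrains ATF4, was too dim to test, at 4.04, 4.07 and 3.96 in knockout HSCs and 4.06, 3.91 and 3.86 in wild-type HSCs. Of the 7 tested members of this role 2 rose and 5 did not pass.

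**Figure D3:**
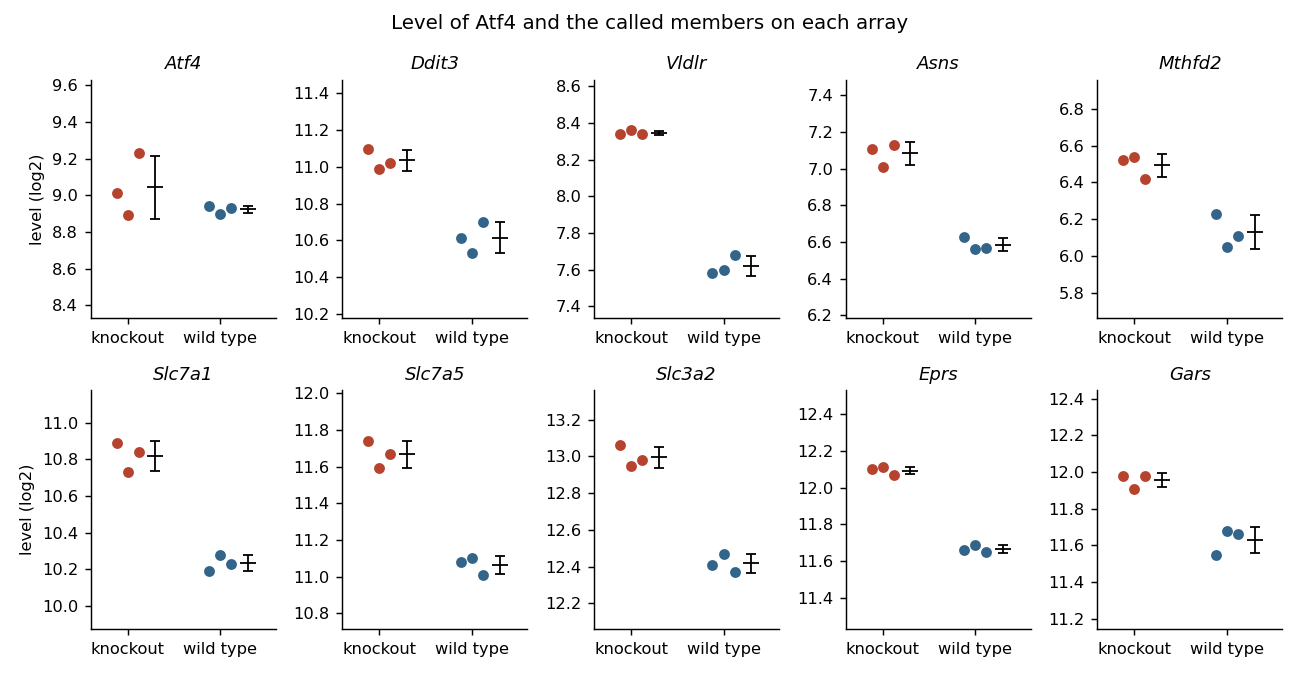
Level of Atf4 and of the 9 called members on each array (log2, vertical axes all spanning the same range), with the 3 knockout arrays at the left and the 3 wild-type arrays at the right of each panel; the bar gives mean and SD. The groups are apart in each called member, while the Atf4 values overlap.

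Of the 7 tested genes of amino acid synthesis 2 rose, Asns and Mthfd2, and 5 did not pass. Asns, encoding asparagine synthetase, was at 7.11, 7.01 and 7.13 in knockout HSCs, against 6.63, 6.56 and 6.57 in wild-type HSCs. The lowest knockout array stood 0.38 above the highest wild-type array. The genotypes differed by 0.50 on the log2 scale (SE 0.06), or 1.41-fold, with a limma adjusted p of 0.0071.

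Mthfd2 encodes a mitochondrial folate enzyme that passes on carbon units derived from serine. Its level was 6.52, 6.54 and 6.42 in knockout HSCs, against 6.23, 6.05 and 6.11 in wild-type HSCs, without overlap. The genotypes differed by 0.36 on the log2 scale (SE 0.07), or 1.29-fold, with a limma adjusted p of 0.034. No run with 5 arrays kept this call. Its adjusted p was 0.095, 0.094 and 0.054 with knockout array 1, 2 or 3 left out, and 0.0505, 0.12 and 0.13 with wild-type array 1, 2 or 3 left out. It missed the threshold too when array medians were set equal (0.052) and when dim clusters stayed in (0.052).

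The serine pathway genes stood slightly higher without passing. Phgdh, the first enzyme of serine synthesis, was at 11.52, 11.49 and 11.79 in knockout HSCs, against 11.44, 11.44 and 11.49 in wild-type HSCs. Knockout array 3 set most of this difference, and knockout array 2 equalled wild-type array 3. The log2 changes were 0.14 for Phgdh, 0.14 for Psat1 (the transaminase of that pathway) and 0.13 for Psph (its phosphatase). Shmt2, the mitochondrial enzyme that splits serine to glycine, was at 10.89, 10.70 and 11.25 in knockout HSCs, against 10.69, 10.63 and 10.74 in wild-type HSCs. Its log2 change of 0.26 had the widest interval of the set (95% interval -0.06 to 0.58), and it was 0.11 without knockout array 3 and 0.38 without knockout array 2. Aldh18a1, which starts proline synthesis from glutamate, had a log2 change of 0.17 (95% interval 0.01 to 0.33; limma adjusted p = 0.20). The 5 genes of synthesis that did not pass thus ran from 0.13 to 0.26.

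Transport held the largest share of calls among the 4 roles: 3 of 6 tested genes rose and 3 did not pass. Of the bright protein-coding clusters 9.36% were called higher, and of all tested clusters 2.96%. The transport genes were all bright, at mean levels of 8.48 to 14.56. The lowest level was 4.27 among regulators and effectors, 5.26 in synthesis and 6.76 in tRNA charging. The part of brightness in these shares was not tested. Slc3a2 encodes the heavy chain CD98, which carries several light-chain transporters to the cell surface. Its level was 13.06, 12.95 and 12.98 in knockout HSCs, against 12.41, 12.47 and 12.37 in wild-type HSCs. The groups were apart by 0.48, and their means by 0.58 on the log2 scale (SE 0.05), or 1.49-fold, with a limma adjusted p of 0.0021.

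Slc7a5 encodes LAT1, the light chain that pairs with CD98 to import leucine and other large neutral amino acids. Its level was 11.74, 11.59 and 11.67 in knockout HSCs, against 11.08, 11.10 and 11.01 in wild-type HSCs, again without overlap. The means differed by 0.60 on the log2 scale (SE 0.06), or 1.52-fold, with a limma adjusted p of 0.0026. The intervals of Slc3a2 (0.46 to 0.70) and Slc7a5 (0.46 to 0.74) cover nearly the same range.

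Slc7a1 encodes CAT1, the importer of arginine and lysine, which needs no heavy chain. Its level was 10.89, 10.73 and 10.84 in knockout HSCs, against 10.19, 10.28 and 10.23 in wild-type HSCs. The groups were apart by 0.45, and their means by 0.59 on the log2 scale (SE 0.06), or 1.50-fold, with a limma adjusted p of 0.0035.

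Among the other transporters, Slc7a6, another light chain of CD98, had a log2 change of 0.06 (95% interval -0.10 to 0.22). Slc38a2, encoding the glutamine and alanine importer SNAT2, was at 14.66, 14.62 and 14.55 in knockout HSCs, against 14.56, 14.48 and 14.51 in wild-type HSCs. The 95% interval of its log2 change was -0.02 to 0.20, and the groups overlapped. Slc1a5, encoding the glutamine exchanger ASCT2, was the member whose knockout arrays all lay lower. Its level was 9.99, 9.89 and 9.89 in knockout HSCs, against 10.07, 10.07 and 10.04 in wild-type HSCs, with a log2 change of -0.14 that did not pass (95% interval -0.27 to -0.01; limma adjusted p = 0.21).

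Of the 11 tested synthetases of this set 2 rose, Eprs and Gars, and 9 did not pass. Synthetases join each amino acid to its tRNA. Eprs, the joint enzyme for glutamate and proline, was at 12.10, 12.11 and 12.07 in knockout HSCs, against 11.66, 11.69 and 11.65 in wild-type HSCs. The arrays of each genotype were within 0.04 of each other, and the means differed by 0.43 on the log2 scale (SE 0.04), or 1.34-fold, with a limma adjusted p of 0.0032.

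Gars, the glycine enzyme, was at 11.98, 11.91 and 11.98 in knockout HSCs, against 11.55, 11.68 and 11.66 in wild-type HSCs, without overlap. The means differed by 0.33 on the log2 scale (SE 0.06), or 1.25-fold, with a limma adjusted p of 0.018. The adjusted p rose past the threshold when knockout array 1 (0.056) or 3 (0.051) or wild-type array 1 (0.059), 2 (0.055) or 3 (0.068) was left out, and after a shift to a common median (0.058).

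The other 9 synthetases did not pass. Tars, the threonine enzyme, was at 9.82, 9.58 and 9.82 in knockout HSCs, against 9.53, 9.48 and 9.44 in wild-type HSCs. Its log2 change of 0.26 (SE 0.08; limma adjusted p = 0.13) passed without knockout array 2 (0.038) and after quantile normalization (0.049). The enzymes for tyrosine (Yars), asparagine (Nars) and methionine (Mars) each had a log2 change of 0.18, and that for tryptophan (Wars) one of 0.15. Knockout arrays were above wild-type arrays in all 4 of these, and none passed. Iars and Lars, for isoleucine and leucine, had log2 changes of 0.06 and 0.02, and Cars, for cysteine, had one of -0.01. Sars, the serine enzyme, was at 9.38, 9.18 and 9.43 in knockout HSCs, against 9.55, 9.42 and 9.47 in wild-type HSCs. With overlapping groups its log2 change of -0.15 (95% interval -0.35 to 0.05) did not pass. Knockout arrays lay above wild-type arrays for 8 of the 11, the 4 just named among them, by as little as 0.01 for Iars. The same was so of 11.6% of all tested clusters and 24.5% of the bright protein-coding ones.

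The members also varied between arrays of 1 genotype. Knockout array 2 gave the lowest of the 3 knockout values for 22 of 31 members (71.0%), against 35.2% of all tested clusters, and the highest for 4. The median deviation of the members from their knockout mean was -0.05 on array 2, 0.03 on array 1 and 0.04 on array 3. The wild-type arrays gave the lowest value for 9, 11 and 8 members. Without knockout array 2 the median log2 change of the members was 0.20, and without knockout array 3 it was 0.12.

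The other genes of the pathway were read from lists of the same roles, which were likewise chosen with results of these arrays known. Of 18 tested further ATF4 partners and targets 6 rose, 1 fell and 11 did not pass, with a median log2 change of 0.18. Over all tested clusters 2.96% were called higher and 4.84% lower, and of the bright protein-coding ones 9.36% and 9.13%. Some of the 11 lay near the limit on dim clusters (4.09), such as Gpt2 at 4.26 in knockout and 4.30 in wild type. Atf3, encoding a repressor of the same family, was at 14.36, 14.20 and 14.14 in knockout HSCs, against 12.64, 12.64 and 12.74 in wild-type HSCs. The means differed by 1.56 on the log2 scale (SE 0.07), with a limma adjusted p of 0.00018. Cebpb, a C/EBP transcription factor gene, was at 8.03, 7.82 and 8.12 in knockout HSCs and 6.69, 7.11 and 6.98 in wild-type HSCs. Its log2 change was 1.06 (SE 0.13; limma adjusted p = 0.0059). Both genes were clear of their wild-type arrays and changed by more than any member. Ddit4, encoding the mTORC1 inhibitor REDD1, rose by 0.93, Herpud1 (removal of misfolded protein from the endoplasmic reticulum) by 0.57, Got1 (aspartate aminotransferase) by 0.55 and Jdp2 (an AP-1 family repressor) by 0.52. For Got1 the limma adjusted p was 0.053 with wild-type array 1 left out and 0.06 with wild-type array 2 left out. Pck2, the mitochondrial form of PEP carboxykinase, fell by 0.44 (limma adjusted p = 0.028). Its adjusted p was past the threshold with knockout array 1 (0.076) or wild-type array 1 (0.09), 2 (0.1) or 3 (0.1) left out. In this list Cbs, Slc7a3, Fgf21, Stc2 and Aldh1l2 were too dim to test, and Gdf15 had no cluster of its symbol alone.

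The sensing arm lies upstream of Atf4. The list for it held genes for eIF2 kinases, eIF2 subunits, the exchange factor eIF2B and the constitutive phosphatase subunit. Impact and Dele1, named to complete it, were on it too. Eif2s1, an eIF2 subunit gene, and Gcn1l1 had no cluster of their symbol alone and were not analysed. Of the 14 tested genes 0 rose and 0 fell by limma, with a median log2 change of -0.02. At an unadjusted p under 0.05, 1 was higher and 4 were lower, where 12.3% of all tested clusters and 21.0% of the bright protein-coding ones were lower. The 4 of 14 lie above these shares in a short list, and whether the list shifted was not tested. The lowest statistics were those of Impact, an inhibitor of the kinase GCN2, with a log2 change of -0.21 (limma adjusted p = 0.086), and of Eif2ak2, encoding the RNA-sensing kinase PKR, with -0.26 (0.11). Eif2s3x, an eIF2 subunit gene, had the highest, with a log2 change of 0.14 (limma adjusted p = 0.18). These kinases act through phosphorylation, which was not measured here.

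Synthetases outside the set gave no call. Of 11 tested genes for other cytosolic synthetases and their scaffold proteins 0 rose and 0 fell by limma, with a median log2 change of 0.00, and 1 was higher and 0 lower at an unadjusted p under 0.05. Rars, the arginine enzyme, came nearest with a log2 change of 0.24 (limma adjusted p = 0.054), and it passed after quantile normalization (0.042) and with the dimmest 60% left out (0.042). Of 16 tested mitochondrial synthetases 0 rose and 0 fell by limma, with a median of -0.07. In that group 0 were higher and 4 lower at an unadjusted p under 0.05, among them Nars2 with a log2 change of -0.23 (limma adjusted p = 0.13) and Hars2 with -0.24 (0.14). At that threshold 12.3% of all tested clusters and 21.0% of the bright protein-coding ones were lower. The 4 of 16 lie above these shares in a short list, and whether the list shifted was not tested. Whether these groups differ from the synthetases of the set was not tested.

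Of 18 tested further amino acid transporters 1 rose, 4 fell and 13 did not pass, with a median log2 change of 0.01. Called higher were 2.96% of all tested clusters and 9.36% of the bright protein-coding ones, and called lower 4.84% and 9.13%. Whether this short list shifted was not tested. The gene that rose was Slc7a8, encoding LAT2, which like LAT1 is a light chain of CD98. Its level was 9.60, 9.50 and 9.67 in knockout HSCs, against 8.79, 8.79 and 8.92 in wild-type HSCs, a log2 change of 0.76 (SE 0.07) with a limma adjusted p of 0.0023. Slc7a7 and Slc7a11, which encode other light chains and are named after their values were seen, had log2 changes of 0.03 and 0.18 that did not pass. Both were dim. Slc7a7 was at 4.98 in knockout and 4.95 in wild type, and Slc7a11 at 4.35 in knockout and 4.16 in wild type.

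Slc43a2, encoding LAT4, was at 7.12, 7.17 and 7.08 in knockout HSCs, against 7.66, 7.66 and 7.64 in wild-type HSCs. It fell by 0.53 on the log2 scale (limma adjusted p = 0.0037). Slc43a1, encoding LAT3, fell by 0.45 (limma adjusted p = 0.0096). LAT3 and LAT4 carry large neutral amino acids without CD98, so genes for transporters of the same substrates were called in opposite directions. Slc38a9, a lysosomal arginine sensor of the mTORC1 pathway, was at 7.32, 7.29 and 7.19 in knockout HSCs and 7.78, 7.85 and 7.81 in wild-type HSCs. It fell by 0.55 (limma adjusted p = 0.0049). Slc6a6, the taurine transporter gene, fell by 0.27 (limma adjusted p = 0.044), a call that no run with 5 arrays kept (adjusted p of 0.053, 0.11 and 0.11 with knockout array 1, 2 or 3 left out, and 0.14, 0.14 and 0.1 with wild-type array 1, 2 or 3 left out). Setting array medians equal (0.053), keeping dim clusters (0.072) and dropping the intensity trend (0.054) ended it too. In the list of further synthesis and folate enzymes, 1 of 15 tested genes rose, Got1, and 0 fell by limma, with a median log2 change of 0.03. There 4 were higher and 1 lower at an unadjusted p under 0.05. Higher at that threshold were 9.32% of all tested clusters and 19.8% of the bright protein-coding ones. Got1 is among the 4 and stands on the list of further ATF4 targets too. Got2 (the mitochondrial aspartate aminotransferase) was the nearest to passing at a log2 change of 0.26 (limma adjusted p = 0.053).

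**Figure D4:**
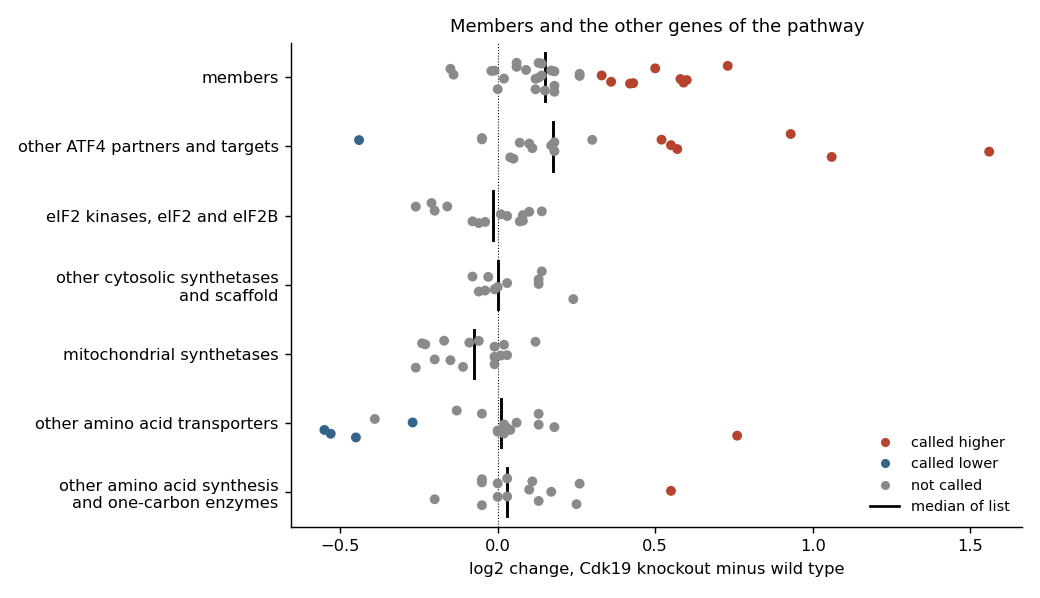
Log2 change of every tested gene, knockout minus wild type (horizontal axis), for the members and for the 6 lists of other pathway genes, with a black line at the median of each list; points are called higher (red), called lower (blue) or not called (grey), and their vertical scatter within a list has no meaning. The calls lie among the members, the further ATF4 targets, the transporters and, for Got1 alone, the further synthesis and folate enzymes; Got1 and a few other genes stand on 2 lists.

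Cdk19 itself was at 11.49, 11.42 and 11.51 in knockout HSCs, against 12.49, 12.45 and 12.38 in wild-type HSCs. This was a log2 change of -0.97 (SE 0.05) with a limma adjusted p of 0.00032, the direction its labels give. The knockout signal remained at 0.512 of the wild-type signal, with a mean level of 11.47, far above the limit on dim clusters. What the remaining signal stands for was not tested. Among cell type markers, 6 of 9 tested lymphoid and B cell genes were called lower (Dntt, Il7r, Ebf1, Cd79a, Ighm and Igll1). So were 4 of 11 of HSCs and multipotent progenitors (Kit, Hlf, Meis1 and Flt3). Called higher were 3 of 5 megakaryocyte genes (Itga2b, Gp9 and F2r) and 3 of 11 granulocyte genes (Prtn3, Ctsg and Lcn2). Over all tested clusters 2.96% were called higher and 4.84% lower. Of the bright protein-coding ones 9.36% were called higher and 9.13% lower. In the remaining lists 1 of 8 monocyte and macrophage and 1 of 5 mast cell and basophil genes were called higher, and 1 of 6 erythroid and 1 of 4 endothelial and stromal genes lower. Of 5 T and NK cell genes 0 were called by limma, with 2 higher and 1 lower at an unadjusted p under 0.05. The mean level over the lymphoid and B cell list was 6.38 to 6.44 in knockout HSCs and 7.02 to 7.03 in wild-type HSCs. For the granulocyte list it was 7.93 to 8.06 in knockout HSCs and 7.72 to 7.84 in wild-type HSCs. For the megakaryocyte list it was 6.27 to 6.28 in knockout HSCs and 5.88 to 5.91 in wild-type HSCs. For the HSC and progenitor list it was 9.58 to 9.62 in knockout HSCs and 9.87 to 9.90 in wild-type HSCs. Too dim to test were Cd3e, Cd8a and Ncr1 of T and NK cells, C1qa and C1qb of macrophages, Mmp8 of granulocytes, Slc4a1 of erythroid cells, Ppbp and Gp6 of megakaryocytes, Fcer1a, Cma1 and Tpsb2 of mast cells and basophils, and Cdh5, Kdr, Col3a1, Lepr and Cxcl12 of endothelial and stromal cells. Other genes of these lists were bright, such as Mpo of granulocytes at 16.87 in knockout and 16.93 in wild type. Nkg7 was at 12.99 in knockout and 12.70 in wild type, and Lyz2 at 11.36 in knockout and 11.37 in wild type. Pdgfrb was at 10.42 in knockout and 10.59 in wild type, and Dntt at 11.40 in knockout and 12.74 in wild type. Of the HSC and progenitor list, Cd34 was bright at 15.82 in knockout and 15.97 in wild type. There Slamf1 was low at 5.65 in knockout and 5.78 in wild type, and Fgd5 at 5.21 in knockout and 5.36 in wild type. Which cell types the sorted samples held was not tested. The part of these marker differences in the changes of the members was not tested.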

How the data were processed

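Expression values, read here as log2, had been deposited for 65956 transcript clusters, 1 column for each of the 6 arrays. The submitters' processing notes name MAS5, without version or role; its background correction, summary, normalization and log base were "not given in the sources used here". Values ran from 2.04 to 19.93, with array medians of 4.40 to 4.48; base 2 was assumed, and fold sizes depend on it. Precision is limited by there being 3 arrays a genotype.

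Clusters were named through the platform annotation: 30604 had 1 symbol, 2146 several and 33206 none. Each member's cluster lay on the chromosome of its gene; a dimmer Ddit3 cluster was unplaced. The dimmest 40% by mean over the arrays (limit 4.09) were left out, and 39543 clusters were fitted with limma 3.58.1 in R 4.3.3 (genotype as the only term, intensity trend, two-sided), with Benjamini-Hochberg adjustment over all of them. Plots and tables used Python 3.11.15, pandas 2.3.3 and matplotlib 3.10.9. The fit was tested on simulated data. Members and lists were chosen with earlier results of these data known. Per-array values are given for Atf4, every called member and, in each role, the members with the highest and lowest moderated statistic; of other lists, called genes and at most 2 at either end are named. The array values of Shmt2, Slc38a2 and Tars and the genes named as too dim, or as bright or low markers, were chosen after their values were seen.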

Additional observations from a re-analysis of the deposited data

How the results depend on the processing

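Of the 9 called members 6 (Vldlr, Asns, Slc7a1, Slc7a5, Slc3a2 and Eprs) were called in all 6 runs that left out 1 array and under all 7 other alternatives, which were quantile normalization, a shift to a common median, no filter on dim clusters, the dimmest 60% left out, no intensity trend, the mean of all clusters of a gene, and the replicate number as a block. The count of members called higher was 9 as reported, 6 to 9 with 1 array left out, 7 with the replicate block, 7 with array medians set equal, 8 when dim clusters stayed in and 10 under quantile normalization; 0 were called lower in any of these runs. Their median log2 change stayed between 0.12 and 0.20. The common median moved the median of all tested clusters by -0.03, and that of the regulators and stress effectors to 0.09. It also left 1 synthesis gene and 1 synthetase called higher. No filter left 1 synthesis gene. With 1 array left out, the count called higher was 1 to 2 for regulators and stress effectors, 1 for synthesis in each run and 1 to 3 for tRNA charging; the count of further ATF4 targets called lower was 0 to 1, and that of further synthesis and folate enzymes called higher was 0 to 2. Among other cytosolic synthetases 1 was called higher after quantile normalization and 1 with the dimmest 60% left out, and among further synthesis and folate enzymes 3 and 2.

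The replicate numbers are shared by the genotypes, and the labels name no pairing. Deviations of same-numbered arrays correlated at -0.138, -0.097 and 0.025, and arrays did not correlate best with their own number. These are deviations from means of 3 arrays, so they cannot show whether the arrays were paired. With the replicate block, 7 of the 9 called members kept their call, with 1 synthesis gene (Mthfd2 lost, limma adjusted p = 0.1), 1 synthetase (Gars lost, 0.083), 0 further ATF4 targets lower (Pck2 lost, 0.084) and 3 further transporters lower (Slc6a6 lost, 0.11); of the granulocyte markers 1 was called higher, against 3 as reported. Uncalled genes near 0 changed sign: Cebpg (0.00), Ppp1r15a (0.01) and Cars (0.03) after quantile normalization and Lars (-0.01) with a common median. With 1 array left out Ppp1r15a ranged from -0.03 to 0.04, Cars from -0.04 to 0.01 and Lars from -0.03 to 0.06. Where calls were lost, the cause was not tested, beyond the fewer arrays of the left-out runs.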
